A study of Mus musculus with 6 samples.

Results

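Genes for the ubiquitin-editing enzyme A20, its partners and the adaptors and ligases of tumor necrosis factor (TNF) receptor signalling were followed in mouse eosinophils given interleukin-33 (IL-33). The genes were picked out of the table by symbol: Tnfaip3, Tnip1, Tnip2, Tnip3, Cyld, Traf1, Traf2, Traf3, Birc2 and Birc3. All 10 were found among the 23420 genes of the expression table, and all 10 passed the filter on low values, which left 10544 genes for testing.

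The cells were eosinophils grown out of wild-type mouse bone marrow, first with stem cell factor plus FLT3 ligand, later with IL-5 at 20 ng/mL, and were used on day 14 after removal of dead cells. Cells of both groups thus shared genotype, IL-5 and culture time. They then received IL-33 at 2.5 ng/mL for 3 hours (3 libraries) or phosphate-buffered saline (PBS, 3 libraries). The strain, age and sex of the mice are not stated in the labels used here, and nothing in them tells whether the libraries of a group had different source animals or cultures. The p-values therefore reflect the spread between these libraries alone, which may be technical.

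IL-33 is an alarmin cytokine whose receptor, ST2, signals through MyD88 to NF-kB. A20, encoded by Tnfaip3, both removes and adds ubiquitin on signalling proteins and thereby limits NF-kB activity, and the ABIN proteins encoded by Tnip1, Tnip2 and Tnip3 bind A20 and ubiquitin chains. CYLD is a deubiquitinase that removes linear and K63-linked chains. TRAF2 and TRAF3 hold the ubiquitin ligases cIAP1 (Birc2) and cIAP2 (Birc3) in a complex that keeps the kinase NIK low and with it the alternative NF-kB branch, whereas TRAF1 is a TRAF without a RING domain.

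Since Tnfaip3 is a textbook target of NF-kB, the promoters of the members were searched for the kappaB consensus, the 10-base motif that NF-kB dimers recognise. It was searched by its usual consensus on both strands, in RefSeq windows of build GRCm38.p6 from 250 bases before to 50 after each start site, and overlapping matches were joined. Of the 10 members, 5 had a match, against 9.55% of the 27025 genes with a window and 8.46% of the 32851 windows. The stretches that hold the matches are printed on the strand of the gene, with the matched bases in capitals.
Tnfaip3, chr10:19015411-19015547, minus strand: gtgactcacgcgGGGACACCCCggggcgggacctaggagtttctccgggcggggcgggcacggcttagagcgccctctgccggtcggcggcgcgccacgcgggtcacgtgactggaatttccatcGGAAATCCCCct
Tnip1, chr11:54962943-54963042, minus strand: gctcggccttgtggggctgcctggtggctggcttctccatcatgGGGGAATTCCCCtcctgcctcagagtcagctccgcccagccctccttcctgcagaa
Tnip3, chr6:65590298-65590397, plus strand: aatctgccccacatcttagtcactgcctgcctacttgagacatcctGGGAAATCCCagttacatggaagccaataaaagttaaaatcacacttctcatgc
Cyld, chr8:88696828-88696927, plus strand: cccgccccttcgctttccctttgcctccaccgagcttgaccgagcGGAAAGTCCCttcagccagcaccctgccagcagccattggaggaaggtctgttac
Traf3, chr12:111166270-111166369, plus strand: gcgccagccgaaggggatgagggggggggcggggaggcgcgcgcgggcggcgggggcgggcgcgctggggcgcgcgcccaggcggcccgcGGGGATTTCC

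Tnfaip3 held 2 matches, from 125 to 116 and from 12 to 3 bases before the start site. The match nearer its start site is the reverse complement of the Traf3 match, which ends at the base before the Traf3 start. That 10-base sequence, on either strand, was in 32 of all windows (0.0974%). The Tnip1 block of 12 bases is a palindrome that joins 3 overlapping matches. None of the 5 stretches overlaps an annotated exon, and those of Tnfaip3 and Tnip3 lie in introns of longer annotated transcripts. A stricter form of the consensus, found in 5.14% of genes, matched the same 5 members. The windows of Tnip2, Traf1, Traf2, Birc2 and Birc3 held no match, which says only that these letters are not in these windows. Genes with a match include Cyld and Tnip3, which were not called, and genes without one include Traf1, Traf2 and Birc3, which were called.

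Expression values are normalized counts, that is reads per gene divided by 1 factor for each library. Two-sided tests of IL-33 minus PBS were run with limma on the scale of log2(normalized count + 1), with Benjamini-Hochberg adjustment across every tested gene, and "called" means an adjusted p under 0.05. Means carry the standard deviation (SD, n = 3) and log2 fold changes the standard error (SE). Per library there were between 8218303 and 10785521 recovered reads, of which the ribosomal RNA precursor gene Rn45s took 13.7% to 59.6% and other genes 4229504 to 7129435. The Rn45s share was 24.3% in IL-33 replicate 1, within the PBS range of 13.7% to 24.8%, and 59.6% and 54.8% in IL-33 replicates 2 and 3. As the share was high only in IL-33 replicates 2 and 3, fits with it as a covariate rest largely on IL-33 replicate 1. Such fits cannot tell the part of Rn45s from that of IL-33, and are not separate from fits of replicate 1 alone. The part of Rn45s in the results below was not tested otherwise.

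Of the 10 members, 6 were higher after IL-33 (Tnfaip3, Tnip1, Traf1, Traf2, Traf3 and Birc3), 0 were lower and 4 (Tnip2, Tnip3, Cyld and Birc2) were not called. Among all genes tested, 17.4% were called higher and 14.4% lower, 31.9% in all. At an unadjusted p under 0.05, and with edgeR and DESeq2 on the recovered reads, the number lower was also 0. Traf1 passed the filter only through its IL-33 libraries, so the count over members describes them and supports nothing further. All 3 IL-33 values lay above all 3 PBS values in 7 members, against 25.5% of genes tested, and below them in 0, against 24.7%. The median log2 fold change was 1.27 over the members and −0.03 over all genes tested. A change in RNA per cell and a change in the share of a cell type cannot be told apart in these bulk libraries.

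**Figure D1:**
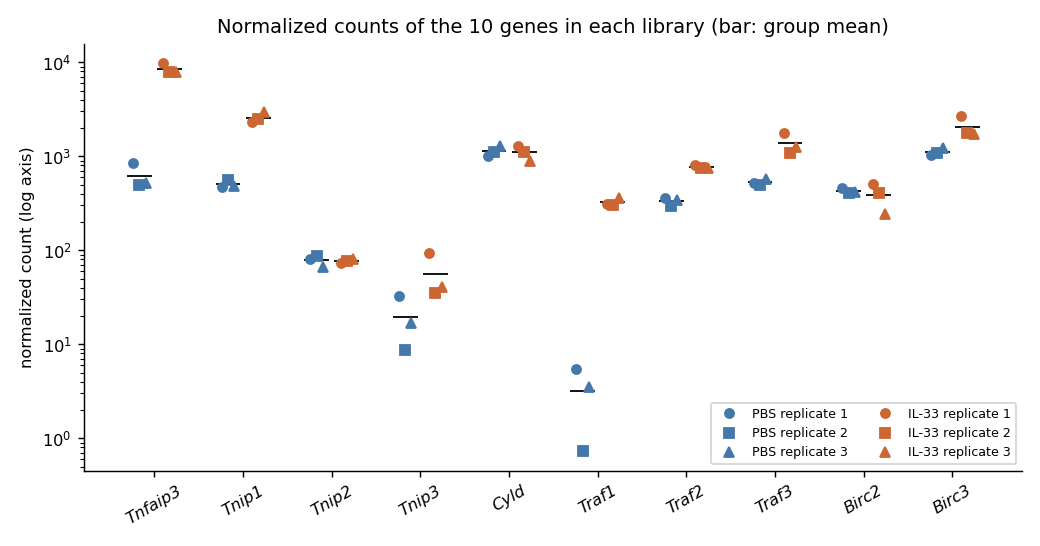
Normalized count of each member in each library on a log axis, with PBS and IL-33 libraries as separate points and bars at group means. Tnfaip3, Tnip1, Traf1, Traf2, Traf3, Birc3 and, with wide spread, Tnip3 show IL-33 libraries above all PBS libraries, while the groups overlap for Tnip2, Cyld and Birc2.

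Tnfaip3 reached the highest level of the group after IL-33. The gene spans chr10:19000910-19015657 on the minus strand (GENCODE vM21, GRCm38, as for the other members). It was at 850.4, 499 and 517 normalized counts in PBS replicates 1, 2 and 3, and at 9747, 7853 and 7950 in IL-33 replicates 1, 2 and 3. PBS replicate 1 was the highest of its group, and the lowest IL-33 library was still far above it. The mean rose from 622 ± 198 to 8517 ± 1067, 13.7-fold (log2 fold change 3.81, SE 0.23, 95% interval 3.28 to 4.34, adjusted p = 6.19e-05, limma). These values rest on 4691 to 10841 reads in the IL-33 libraries and 686 to 1095 in the PBS libraries.

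Of the A20-binding partners, Tnip1, which encodes ABIN1, rose (chr11:54910785-54962917, minus strand). Its normalized counts were 477, 562 and 480.1 in the PBS libraries and 2321, 2501 and 2927 in the IL-33 libraries. The mean went from 506 ± 48.5 to 2583 ± 311, 5.10-fold (log2 fold change 2.35, SE 0.16, adjusted p = 1.11e-04, limma). Unlike Tnfaip3, whose highest IL-33 library was replicate 1, Tnip1 was highest in IL-33 replicate 3.

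Tnip2, which encodes ABIN2, did not pass the test (chr5:34496087-34513991, minus strand). It was at 80.8, 86.6 and 67.1 normalized counts in the PBS libraries and at 73.7, 76.9 and 81.4 in the IL-33 libraries. All 3 IL-33 values fell within the PBS range. The log2 fold change was −0.01, with a 95% interval from −0.48 to 0.47 (adjusted p = 0.98, limma). With 48 to 119 reads per library, changes inside that interval were not detectable.

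Tnip3, which encodes ABIN3, was the sparsest of the partners and varied most between libraries (chr6:65525313-65634040, plus strand). It had 32.6, 8.73 and 16.8 normalized counts in the PBS libraries, from 42, 12 and 24 reads, and 92.6, 35.4 and 40.7 in the IL-33 libraries, from 103, 23 and 24 reads. The groups did not overlap, but the lowest IL-33 value stood only just above PBS replicate 1. The log2 fold change was 1.54 (SE 0.52, 95% interval 0.34 to 2.74, adjusted p = 0.0546, limma), which missed the threshold. Without PBS replicate 1 it was called, at 1.99 (adjusted p = 0.0437, limma), and DESeq2 on recovered reads also called it, at 1.56 (adjusted p = 0.0192), while edgeR did not (adjusted p = 0.0503). In all, Tnip3 was not called in 13 of the 19 alternatives in which it was tested.

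The partners were also compared with each other within each library, where a ratio of counts does not depend on the scaling between libraries. Tnip1 was at 5.90, 6.50 and 7.16 times the count of Tnip2 in the PBS libraries and at 31.5, 32.5 and 36.0 times in the IL-33 libraries. For tests and means, 1 was added to each count before the log2 ratio was taken, which pulls the ratios of sparse genes such as Tnip3 and Traf1 together and ties them in part to the scaling. On that scale the Tnip1 to Tnip2 log2 ratio was 2.68 ± 0.14 in PBS and 5.04 ± 0.10 in IL-33. The Tnip3 to Tnip2 log2 ratio was −2.13 ± 0.96 in PBS and −0.59 ± 0.79 in IL-33, without overlap. The Tnip3 to Tnip1 log2 ratio was −4.81 ± 1.01 and −5.62 ± 0.86, and its groups overlapped. With 3 libraries against 3, an exact two-sided permutation test cannot go below p = 0.1. That value was reached by the first and second of these ratios (p = 0.133 adjusted over the 8 ratios tested) and not by the third (exact permutation p = 0.3, adjusted 0.343).

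Cyld was expressed in every library and was not called (chr8:88697028-88751945, plus strand). It was at 1005, 1107 and 1273 normalized counts in PBS and 1288, 1124 and 902 in IL-33, so the groups overlapped. The log2 fold change was −0.04 (95% interval −0.47 to 0.39, adjusted p = 0.886, limma), and its sign turned to 0.10 without IL-33 replicate 3 and to 0.05 without PBS replicate 3. Tnfaip3 was therefore at 0.846, 0.451 and 0.406 times Cyld in the PBS libraries and at 7.57, 6.98 and 8.82 times Cyld in the IL-33 libraries, in counts not divided by gene length. With 1 added to each count, that log2 ratio differed by 3.85 (exact two-sided permutation p = 0.1, the smallest this design allows, adjusted 0.133).

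**Figure D2:**
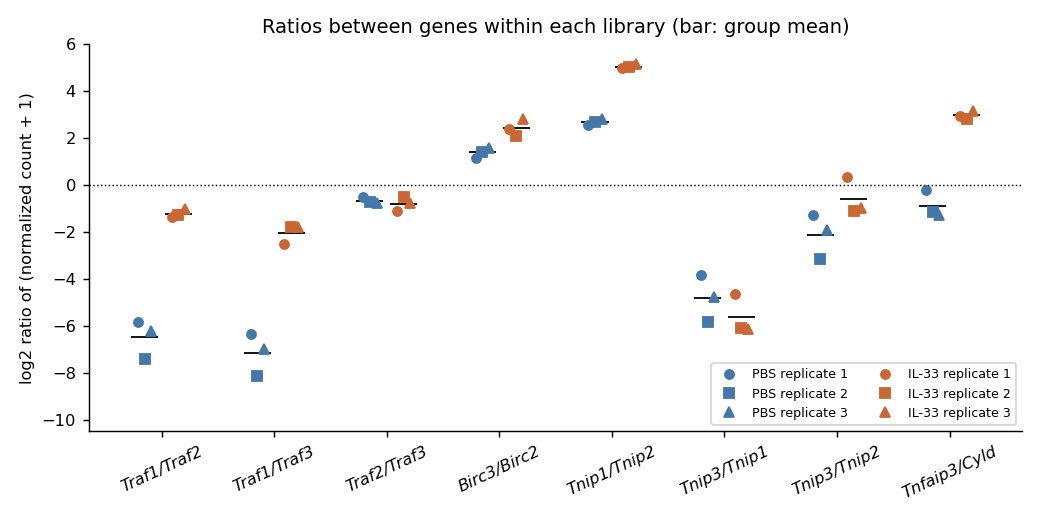
Log2 ratio between 2 members of the same library, with 1 added to each count, for the 8 pairs compared, with each point a library, bars at group means, and PBS and IL-33 shown separately. Tnfaip3/Cyld, Traf1/Traf2, Traf1/Traf3, Tnip1/Tnip2, Tnip3/Tnip2 and Birc3/Birc2 are higher in every IL-33 library, and Traf2/Traf3 and Tnip3/Tnip1 overlap.

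Traf1 had the largest log2 fold change of the members. TRAF1 binds TNF receptors and TRAF2 and is itself a known NF-kB target (chr2:34941750-34961772, minus strand). It had 5.44, 0.728 and 3.49 normalized counts in the PBS libraries and 311, 306 and 364 in the IL-33 libraries. The PBS libraries held 7, 1 and 5 reads, 13 in all, and the IL-33 libraries 346, 199 and 215, 760 in all. After scaling, the ratio was 102 (95% exact interval 59.1 to 192, which covers counting error only, as the reads carry no molecular identifiers and may share a molecule). The log2 fold change was 6.47 (SE 0.46, adjusted p = 1.18e-04, limma), from means of 3.22 ± 2.37 and 327 ± 32.3. Since Traf1 passed the filter only through its IL-33 libraries, it had to differ, and this p-value supports nothing further.

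Traf2 and Traf3 rose by less. Traf2 (chr2:25517982-25546940, minus strand) was at 364, 296 and 340 normalized counts in PBS and at 810.1, 743 and 742 in IL-33. Its log2 fold change was 1.20 with an SE of 0.16 (limma, adjusted p = 0.00192). The means were 333 ± 34.5 in PBS and 765 ± 39.0 in IL-33. Traf3 (chr12:111166370-111267153, plus strand) was at 523, 492 and 579 in PBS and at 1776, 1072 and 1263 in IL-33. Its log2 fold change was 1.34 with an SE of 0.21 (limma, adjusted p = 0.00369). IL-33 replicate 1 was the highest library for both genes. Scaled to equal library totals, which moves the median of all genes to −1.06, neither was called (Traf2 0.16, adjusted p = 0.702, and Traf3 0.30, adjusted p = 0.566, limma).

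The ratio of the 2 RING-bearing TRAFs moved by less than the spread between libraries, while that of Traf1 to either changed by more than 5 on the log2 scale. The Traf2 to Traf3 log2 ratio was −0.67 ± 0.13 in PBS and −0.81 ± 0.30 in IL-33, a difference of −0.13 with overlapping groups (exact two-sided permutation p = 0.5), which turned to 0.027 without IL-33 replicate 1. Traf1 was at 0.0149, 0.00246 and 0.0103 times the count of Traf2 in the PBS libraries and at 0.384, 0.412 and 0.491 times in the IL-33 libraries. With 1 added to each count the log2 difference was 5.27 for Traf1/Traf2 and 5.14 for Traf1/Traf3, without overlap (exact permutation p = 0.1, adjusted 0.133, for each). Without that addition, a setting chosen after seeing the data, the differences were 5.88 and 5.75. As Traf1 passed the filter only through its IL-33 libraries, its ratios had to differ, and their separation and p-values support nothing further.

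Of the cIAP genes, Birc3 was higher after IL-33 and Birc2 was not called. They are neighbours on the minus strand of chromosome 9, Birc2 at chr9:7818227-7837064 and Birc3 at chr9:7848699-7873186, with 11634 bases between them. Birc3 was at 1026, 1080 and 1238 normalized counts in PBS and at 2682, 1755 and 1732 in IL-33, so all IL-33 libraries were higher and replicate 1 stood above the others. The log2 fold change was 0.86 (SE 0.21, 95% interval 0.38 to 1.33, adjusted p = 0.0176, limma). Of the members called, Birc3 changed least, and it was not called in 6 of 20 alternatives. Its call was lost without PBS replicate 1 (0.80, adjusted p = 0.0703), PBS replicate 2 (0.84, adjusted p = 0.0785) or PBS replicate 3 (0.93, adjusted p = 0.0605, limma). With equal totals its log2 fold change was −0.18. Here and below, a fit with a library left out has fewer libraries. A lost call therefore does not by itself tie a result to the library left out.

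Birc2 was at 457, 405 and 419 normalized counts in PBS and at 511, 412 and 244 in IL-33. The IL-33 libraries spread to both sides of the PBS range, from replicate 1 above it to replicate 3 below it. The log2 fold change was −0.20 (95% interval −0.81 to 0.42, adjusted p = 0.585, limma), and it was 0.10 without IL-33 replicate 3. Within libraries, Birc3 was at 2.24, 2.66 and 2.96 times Birc2 in PBS and at 5.25, 4.26 and 7.10 times Birc2 in IL-33, a log2 difference of 1.05 (1 added to each count) without overlap (exact permutation p = 0.1, adjusted 0.133). Of the 50-base stretches of Birc3 transcripts, 7.56% also occur in other genes, 4.19% in Gm7019, and 1.42% of those of Birc2 occur in Birc3, so a small part of their reads could be counted for either. The share was at most 1.79% for the other members, and exons of none of the members overlap those of another gene.

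**Figure D3:**
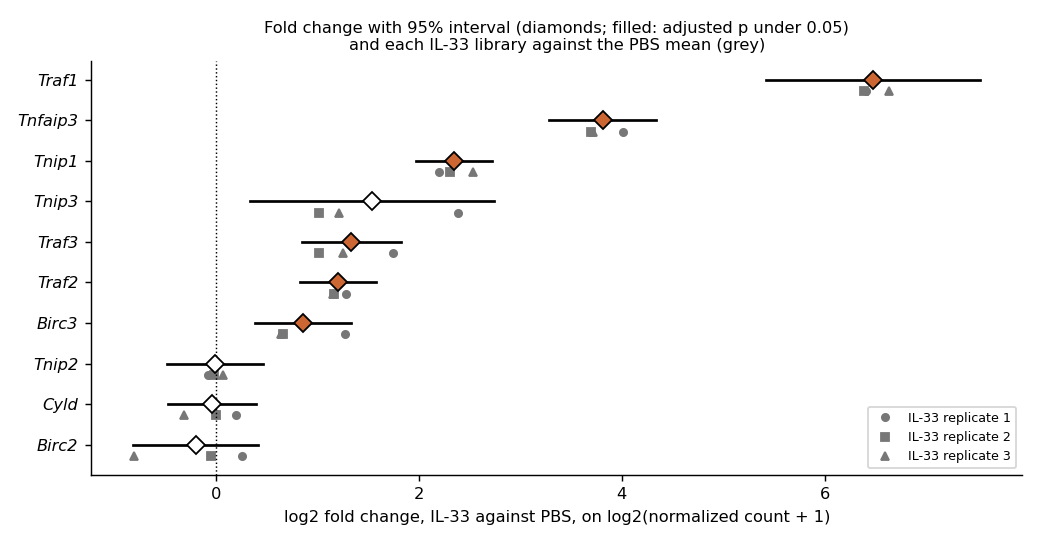
Log2 fold change (IL-33 minus PBS, on the log2(normalized count + 1) scale) of each member with its 95% interval (filled where called), and grey points for the single IL-33 libraries against the PBS mean. The intervals of Tnip2, Cyld and Birc2 span 0, that of Tnip3 runs from 0.34 to 2.74, and Traf1 stands highest at 6.47.

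The order of single IL-33 libraries differed between members. Against the PBS mean, IL-33 replicate 1 gave the highest log2 difference for Tnfaip3 (4.01), Tnip3 (2.38), Traf3 (1.74), Traf2 (1.28), Birc3 (1.27), Birc2 (0.26) and Cyld (0.20). IL-33 replicate 3 gave the highest for Tnip1 (2.53), Traf1 (6.63) and Tnip2 (0.07) and the lowest for Birc2 (−0.80), Cyld (−0.32), Birc3 (0.64) and Traf2 (1.16). In a fit of IL-33 replicate 1 alone against PBS, that library is assumed to vary like the PBS libraries. The log2 fold changes of members in that fit are its differences from the PBS mean. Traf1 did not enter that fit, since 3 libraries at 10 or more were required. With the Rn45s share as a covariate 7 members were called higher, against 914 of all 10544 genes tested. Tnip3 was among these members, at 2.39 (adjusted p = 0.0393, limma).

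Divided by the length of the merged exons, levels were set side by side between genes. That length covers all annotated transcripts of a gene, and which transcripts the cells used was not examined. In PBS, Birc3 led at 222 ± 22.0 normalized counts per kilobase (kb), followed by Tnip1 at 143 ± 13.7. Birc2 (93.3), Cyld (89.7), Tnfaip3 (86.1), Traf3 (72.3) and Traf2 (65.3) followed, and each overlapped its neighbour in this order. Tnip2 was at 29.1 per kb, Tnip3 at 1.77 and Traf1 at 0.365, each apart from the next.

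After IL-33 the order per kb was Tnfaip3 (1179 ± 148), Tnip1 (729.9 ± 87.9), Birc3 (411 ± 108), Traf3 (186), Traf2 (150.0), Cyld (87.8), Birc2 (84.9), Traf1 (37.1), Tnip2 (28.8) and Tnip3 (5.15). Neighbours overlapped for Traf3 and Traf2 and for Cyld and Birc2. Among tested genes with a known exon length, Tnfaip3 moved from percentile 73.5 to 98.2, Tnip1 from 84.3 to 96.4 and Traf1 from 0.101 to 51.9. Traf1 is ranked there only because of its IL-33 libraries, so its low PBS percentile and its climb follow from the filter. Birc3 was already at percentile 90.4 in PBS and was at 92.8 after IL-33.

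**Figure D4:**
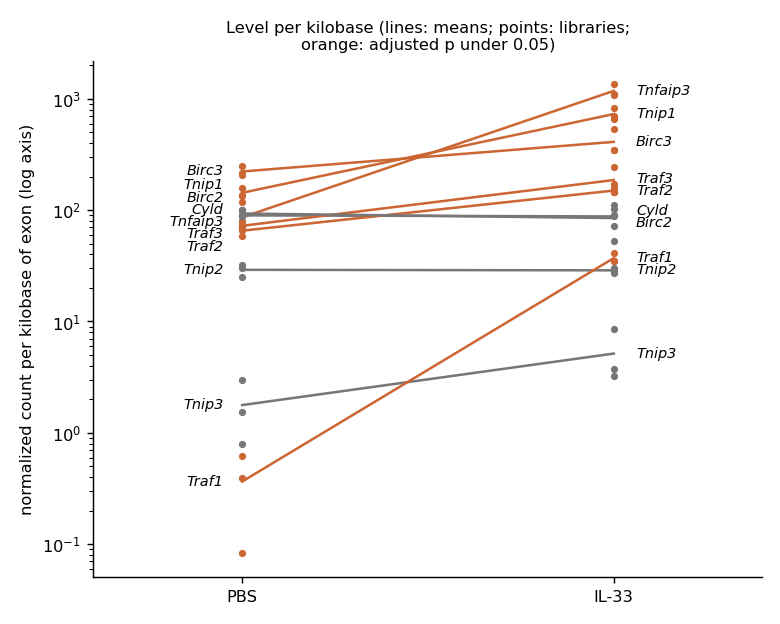
Normalized counts per kb of merged exons (log axis) in PBS and IL-33, with points for libraries, lines between group means, and orange for genes called by limma. Birc3 is highest in PBS and Tnfaip3 after IL-33, and Traf1 moves from the lowest place in PBS to above Tnip2.

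Genes whose pattern over the 6 libraries was most like that of Tnfaip3 were ranked by the Euclidean distance between log2 profiles, each taken relative to its PBS mean, among 7639 genes with a mean of at least 50 normalized counts. The nearest was Cd14, a co-receptor for lipopolysaccharide (distance 0.54), from 73.1 ± 29.8 to 904 ± 105. Icam1, an adhesion molecule (0.58), Ak4, an adenylate kinase (0.63), Zc3h12a, an RNase that degrades cytokine mRNAs (0.67), and Adora2a, an adenosine receptor (0.76), came next. Ak4 was at 7.19 ± 3.22 in PBS and 137 ± 37.8 in IL-33. It reached the mean of 50 only through its IL-33 libraries, so it could enter the ranking only with a large rise. Of the other members, Tnip1 came nearest, at rank 113 (distance 2.68). The distance mostly reflects the size of the difference, and the ranking is a description over 6 libraries.

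Other genes of the pathway were counted in 6 lists of 78 genes in all, of which 69 passed the filter. After IL-33, 16 of these were higher, 11 were lower and 42 did not pass the test, and the median log2 fold change was −0.15. Over all genes tested, 17.4% were called higher and 14.4% lower, with a median of −0.03. The counts here and for each list below are descriptions and were not tested against those shares. The numbers over all genes change with the setting as well. Of 10544 genes tested, 262 were higher and 5281 lower with equal totals, and 914 and 642 with the Rn45s share as a covariate. Without IL-33 replicate 1, 2910 of 10386 genes were higher and 2950 lower. List counts under other settings are to be read beside these numbers. The ranges over all left-out libraries stand in the last paragraph.

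**Figure D5:**
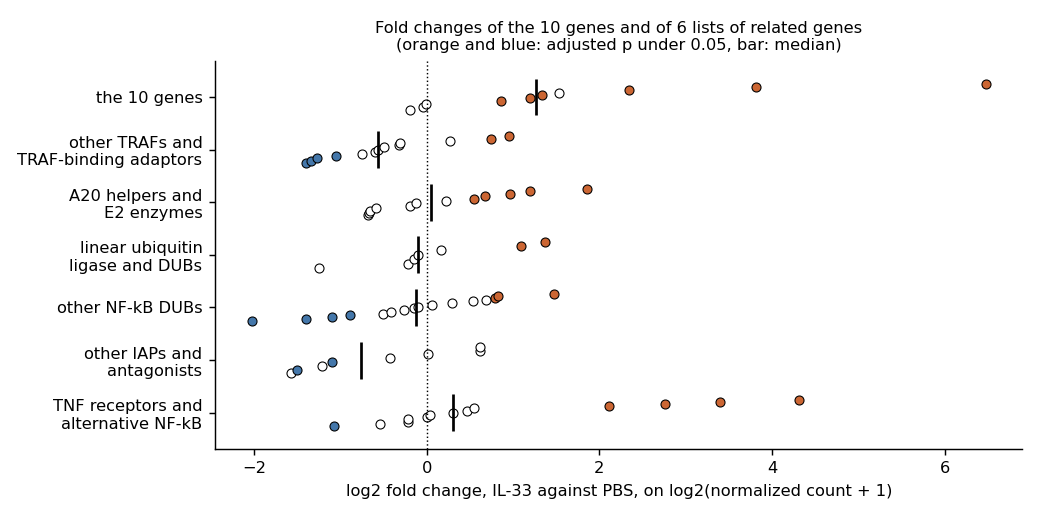
Log2 fold change (IL-33 minus PBS) of each tested gene in the 6 pathway lists and of the members, orange where called higher, blue where called lower, with a bar at each median; DUB stands for deubiquitinase and E2 for ubiquitin-conjugating enzyme. The members reach from −0.20 to 6.47, and the genes of the list of TNF receptors and the alternative branch from −1.07 to 4.31.

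Among 13 tested genes of other TRAFs and TRAF-binding adaptors, 2 were higher and 4 lower, with a median log2 fold change of −0.57. Traf3ip3, a TRAF3-interacting protein, fell from 466 ± 55.0 to 184 ± 21.4 (−1.34, adjusted p = 0.002, limma) and stayed called without each library in turn. Traf5 (−1.26) lost its call without PBS replicate 3 (−1.17, adjusted p = 0.0586, limma). Ripk1, the kinase at the TNF receptor that A20 modifies, was at 504, 517 and 658 normalized counts in PBS and at 412, 151 and 149 in IL-33 (−1.40, adjusted p = 0.0263, limma). Its call was lost without any 1 of IL-33 replicates 2 and 3 and PBS replicates 1, 2 and 3 (−1.16, −1.15, −1.47, −1.45 and −1.28). With the Rn45s share as a covariate Ripk1 was at −0.31 (adjusted p = 0.374, limma), and with IL-33 replicate 1 alone at −0.43. Tradd (0.95) and Traf6 (0.74), the TRAF that acts below MyD88, were called higher, and turned to −0.09 and −0.30 with equal totals. Leaving out IL-33 replicate 2 or PBS replicate 2 gave 0 higher and 2 lower genes in this list, leaving out PBS replicate 1 gave 1 and 2, and leaving out PBS replicate 3 gave 0 and 1. The list had 0 higher and 1 lower with the Rn45s share as a covariate, and 0 and 10 with equal totals.

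A20 acts with helper proteins and ubiquitin-conjugating enzymes, and of 12 such genes 5 were higher and 0 lower (1 lower at an unadjusted p under 0.05, and 0 with edgeR or DESeq2), with a median of 0.05 (−0.97 with equal totals). Optn, which encodes the ubiquitin-binding protein optineurin, rose from 49.9 ± 7.44 to 188 ± 56.9 (1.86, adjusted p = 0.00272, limma). Ube2d2a, an E2 enzyme of the UBCH5 family, rose from 353 ± 31.5 to 820 ± 188 (1.19, adjusted p = 0.00568, limma). Both remained called without each library in turn, but not with equal totals (0.83 and 0.15, adjusted p = 0.143 and 0.641, limma). Rnf11 (0.96) lost its call without PBS replicate 2 or 3 (0.95 and 0.85, adjusted p = 0.0526 and 0.062, limma) and was at −0.08 with equal totals. The count was 3 higher without IL-33 replicate 2, 2 without PBS replicate 2 or PBS replicate 3, and 5 higher with 5 lower without IL-33 replicate 1. With equal totals it was 0 higher and 4 lower.

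Linear ubiquitin chains are made by a complex whose catalytic subunit HOIP is encoded by Rnf31 and are cut by OTULIN. Of 7 tested genes of this list, 2 were higher and 0 lower (1 lower at an unadjusted p under 0.05, 0 with edgeR, 1 with DESeq2). Rnf31 rose from 653 ± 68.8 to 1706 ± 362 (1.37, SE 0.20, adjusted p = 0.0027, limma). Otulin, listed under its older symbol Fam105b, rose from 718 ± 114 to 1524 ± 95.3 (1.10, SE 0.17, adjusted p = 0.00369, limma). Thus the ligase subunit and the deubiquitinase were both higher in every IL-33 library, and both stayed called without each library in turn. With equal totals neither was called (Rnf31 0.33, adjusted p = 0.309, and Otulin 0.06, adjusted p = 0.882, limma), and the list then had 4 lower genes and 0 higher. Leaving out IL-33 replicate 1 gave 1 lower gene. The other subunits Rbck1 (−0.10) and Sharpin (−0.21), named after their values were seen, were not called.

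Of 16 other deubiquitinases tested, 3 were higher and 4 lower, with a median of −0.12. Usp10, which works in a complex that limits NEMO ubiquitination, rose from 82.9 ± 12.5 to 237 ± 62.3 (1.48, adjusted p = 0.00461, limma). It stayed called without each library in turn, but not with equal totals (0.45, adjusted p = 0.229, limma). Otud7b (0.79), also called Cezanne, lost its call once PBS replicate 3 was left out (0.76, adjusted p = 0.0592, limma), and was at −0.25 with equal totals. Otud5 (0.83, but −0.21 with equal totals), Usp15 (−1.40) and Stambp (−0.88) were called with all libraries. When single libraries were left out, Otud5 and Usp15 were called only without IL-33 replicate 1, and Stambp only without IL-33 replicate 1 or 3. With the Rn45s share as a covariate none of these was called (Otud5 0.28, Usp15 −0.19 and Stambp −0.76, adjusted p = 0.493, 0.744 and 0.133, limma). With IL-33 replicate 1 left out the list had 5 higher and 4 lower genes, with IL-33 replicate 2 or PBS replicate 1 left out 2 and 1, with PBS replicate 2 left out 2 and 0, and with PBS replicate 3 left out 1 and 0. With the covariate it had 1 and 0, and with equal totals 0 and 9.

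Among 8 tested genes of other IAP proteins and their antagonists, 0 were higher (2 at an unadjusted p under 0.05, 0 with edgeR, 1 with DESeq2) and 2 lower, with a median of −0.76. Those were Naip5 (−1.50) and Naip2 (−1.09), sensors of bacterial flagellin and secretion systems that share the IAP repeat. In IL-33 replicates 1, 2 and 3, Naip5 was at 239, 129 and 64.4 normalized counts, below the 335 to 398 of the PBS libraries. Neither was called without IL-33 replicate 2 or any PBS library, and Naip2 also not without IL-33 replicate 3 (−0.72). Dropping IL-33 replicate 1 gave 2 higher and 5 lower genes, dropping IL-33 replicate 2 or 3 gave 1 lower gene, and dropping a PBS library gave 0 lower. With the Rn45s share as a covariate Naip5 was at −0.56 and Naip2 at −0.41 (adjusted p = 0.391 and 0.472, limma), 0 genes were lower and the median was −0.19, and with equal totals 5 were lower. Xiap, the inhibitor of effector caspases, also named after its values were seen, was not called (0.62, adjusted p = 0.0595, limma).

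The list of TNF receptors that bind TRAFs and of the alternative NF-kB branch had 4 higher and 1 lower of 13 tested, with a median of 0.30 (−0.72 with equal totals and −0.11 with equal totals without Rn45s). Nfkb2, which encodes the p100 precursor of that branch, rose from 390 ± 20.6 to 4138 ± 384 (3.40, SE 0.15, adjusted p = 1.96e-05, limma). Relb, which encodes the partner of processed p100, rose from 141 ± 3.50 to 963 ± 121 (2.76, SE 0.17, adjusted p = 6.3e-05, limma). Tnfrsf1b, the gene of TNF receptor 2, which signals through TRAF2, rose from 516 ± 86.2 to 2255 ± 520 (2.11, adjusted p = 5.32e-04, limma).

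These 3 genes were called without each library in turn, and with equal totals Tnfrsf1b was not (1.07, adjusted p = 0.0511, limma). Tnfrsf9, the gene of the TRAF1- and TRAF2-binding receptor 4-1BB, lies outside the rule for naming genes and was named after its values were seen. It was at 3.88, 2.91 and 3.49 normalized counts in PBS and at 96.2, 96.9 and 69.5 in IL-33, a log2 fold change of 4.31. Like Traf1 it passed the filter only through its IL-33 libraries, so it had to differ, and its place among the 4 higher genes supports nothing. Map3k14, which encodes NIK, the kinase that the TRAF and cIAP complex keeps low, was at means of 400 and 414 (0.04, adjusted p = 0.9, limma), and was likewise chosen after its values were seen. These are RNA values, and the NIK protein was not measured. The number called lower, 1 with all libraries (Tnfrsf18, −1.07, also outside the rule), was 0 without IL-33 replicate 2 or any PBS library and 2 without IL-33 replicate 1. With equal totals the list had 3 higher and 6 lower.

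Markers of the cultured cells moved with these changes. Of 10 eosinophil markers tested, 9 were called lower, and their summed normalized counts ranged from 51552 to 62607 in PBS and from 18843 to 31334 in IL-33, led by Prg2. Of 6 tested macrophage and monocyte markers of a list of 10, 2 were called higher, and the list summed to 8954 to 11469 in PBS and 24402 to 31152 in IL-33. Those were Emr1, from a mean of 7872 to 22031, which eosinophils also express, and Csf1r, from 1637 to 4325. Emr1 was the highest gene of the list and led its sum. The other tested genes were not called: Ly6c2 was at means of 689 and 429, Mrc1 at 13.9 and 8.59, Apoe at 21.2 and 21.7. Cd68 was at means of 70.6 and 69.3, and Marco was at 0 in all libraries. Their part in the members' differences was not tested.

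The neutrophil list (10 of its 11 genes analysed here, 9 tested) summed to 2974 to 3596 in PBS and 2363 to 3123 in IL-33, and 3 of its genes (Mpo, Cxcr2 and S100a9) were called lower. Mast cell and basophil markers summed to 187 to 476 and 131 to 356, with Cpa3 and Ms4a2 called lower and Mcpt4 at 0. Dendritic cell markers summed to 71.3 to 182 and 117 to 232, and of 2 tested H2-Ab1 was called higher (means 47.6 and 111). The other, H2-Aa, was not called (means 47.5 and 39.7, log2 fold change −0.26). Lymphoid markers summed to 83.7 to 96.3 and 49.1 to 83.0, with Ncr1 at 0. The erythroid and megakaryocyte list summed to 2188 to 2947 and 1977 to 2954, led by Itga2b. Of its 3 tested genes Pf4 was called higher (means 35.9 and 98.5), and its globin genes were at 0.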

How the data were processed

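RNA was sequenced from 6 libraries, 3 per group, made from ribosomal RNA-depleted total RNA with a kit that keeps the strand. The authors deposited 1 table of normalized gene counts, a signal obtained from reads per gene by dividing every gene of a library by the same factor. The tools named in the submitters' processing notes are DESeq2, HISAT2 and HTSeq, and the build named there is mm10. Their versions, the annotation and whether counting used strand were not given in the sources used here. Values were whole multiples of their library's smallest step (100% within 0.1 of a read), so reads could be recovered. Depth differed between libraries after Rn45s was set aside, and low genes such as Tnip3 and Traf1 carry the widest relative counting error.

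Group differences were tested with limma 3.58.1 (R 4.3.3), using a moderated variance with a mean-variance trend and no replicate block, on log2(normalized count + 1), which understates the change of low genes. Genes entered at a normalized count of at least 10 in at least 3 libraries, and p-values were adjusted over all genes tested. Ratios within libraries were tested by exact permutation (SciPy 1.17.1) on log2 ratios with 1 added to each count. Coordinates and merged exon lengths are those of GENCODE vM21 for GRCm38, and promoters are RefSeq windows of GRCm38.p6. The code was tested on simulated data. A marker gene of the erythroid list is not reported here.

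The members and lists were chosen with earlier results of these data known. From each list, up to 3 called genes per direction with the largest absolute log2 fold change and a mean of at least 50 normalized counts were named; with under 2 called genes, the 2 with the smallest p. Alternatives were pseudocounts of 0.5 and 5, no filter and a filter at 50, TMM, equal totals with and without Rn45s, no mean-variance trend, quantile normalization, DESeq2 1.42.0 and edgeR 4.0.16 on recovered reads, a replicate block, the Rn45s share as a covariate, IL-33 replicate 1 alone, each library left out, and a stricter motif. A filter in 2 libraries with an IL-33 library left out, and ratios without a pseudocount, were chosen after seeing the data.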

Additional observations from a re-analysis of the deposited data

How the results depend on the processing

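Tnfaip3 and Tnip1 were called higher in all 20 alternatives (log2 fold change 2.77 to 4.06 and 1.31 to 2.42), and Traf1 in the 16 in which it was tested (5.38 to 6.88). As Traf1 passed the main filter only through its IL-33 libraries, its calls support nothing further. Traf2 and Traf3 lost their call only with equal totals. Over all genes tested the median log2 difference was −0.03, against −1.06 with equal totals and −0.45 with equal totals without Rn45s, and the share of higher genes among calls was 54.7%, 4.73% and 21.0%. With equal totals 3 members were higher and 3 lower (Tnip2 −1.04, Cyld −1.08, Birc2 −1.24), Birc3 was at −0.18, and 262 genes were higher and 5281 lower. Without Rn45s these were 951 and 3569, and Birc3 was not called (0.43, adjusted p = 0.152, limma), nor with quantile normalization (0.47, adjusted p = 0.128), where Tnip2 was at 0.14. With the Rn45s share as a covariate 914 genes were higher and 642 lower, Cyld was at 0.25 and Birc2 at 0.21. With IL-33 replicate 1 alone Cyld was at 0.20 and Birc2 at 0.26. The cause of these shifts was not tested.

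With single libraries left out, 5 to 6 members were higher and 0 lower, and Traf1 did not pass the filter when an IL-33 library was missing. With a filter in 2 libraries, chosen after seeing the data, Traf1 was at 6.39 to 6.52 and 6 members were higher. Genes higher ranged from 695 to 2910 and lower from 318 to 2950 (with the filter in 2 libraries, 946 and 761 when IL-33 replicate 2 was left out, 3040 and 3025 when IL-33 replicate 1 was). Tnip2 ranged from −0.11 to 0.069 (0.025 without IL-33 replicate 1), Cyld from −0.16 to 0.10, Birc2 from −0.43 to 0.10 and the Traf2/Traf3 log2 ratio difference from −0.27 to 0.027. Whether the replicate numbers pair the libraries is not known. Correlations of deviations were 0.05, 0.24 and −0.16 for the same number and −0.28 to 0.24 for different numbers. With so few libraries these values cannot decide it. With the number as a block, 7 members were called higher, Tnip3 being added (1.54, adjusted p = 0.016, limma), against 1620 of all 10544 genes tested. Depth limits Tnip3, with 12 to 103 reads a library, and Traf1, with 1 to 7 reads in each PBS library.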
